A study of Mus musculus with 7 samples.

Results

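The genes described here are 42 members of the DNA replication and G1/S machinery, out of 56748 genes with a count in the files. They were chosen by name, for their role in licensing replication origins, building and running the replication fork, supplying nucleotides or switching on S phase. The rule uses no measured value, but the choice was made with earlier results of these data known. Each symbol was matched to exactly 1 Ensembl identifier. By role there were 10 origin licensing genes, 6 helicase activation genes, 7 polymerase and primase genes, 7 genes of the clamp, the clamp loader and the single-strand binding protein RPA, 2 genes of Okazaki fragment joining, 4 nucleotide supply genes, 3 genes of E2F and cyclin E, and 3 genes that restore chromatin at the fork.

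A cell licenses its origins in G1, when ORC, CDC6 and CDT1 place rings of MCM2 to MCM7 on DNA. At the start of S phase the rings are turned into active helicases, and the polymerases follow them with a sliding clamp. Many of these genes are targets of E2F transcription factors, which are released when cyclin-dependent kinases act on the retinoblastoma protein. In skeletal muscle, muscle stem cells (MuSCs) rest outside the cycle, divide as myoblasts after activation, and leave the cycle for good when they differentiate and fuse.

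RNA came from hindlimb MuSCs of adult WT mice (3 samples) and of mice homozygous for Jag2sm (4 samples), a germline hypomorphic allele of *Jag2*, which encodes a NOTCH ligand. The labels write the genotype of the latter as Jag2-/-, and the allele is present in every cell of the animal, not in MuSCs alone. In both genotypes, dissociated cells were sorted with antibodies and magnetic beads as negative for CD31, CD45 and Sca1 and positive for Integrin α7, and the growth notes describe culture in myoblast growth medium. Each sample gave 1 long-read cDNA library, and nothing states that each came from a separate animal, so p-values measure the spread between these samples, which may be technical.

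Reads counted on genes ranged from 671660 to 1937581 in 6 libraries, and WT replicate 1 had 187834. In that library 3 counts, the limit that a count of 0 allows, correspond to 16.0 CPM (counts scaled to the library size). In the others they are 1.55 to 4.47 CPM by the same measure. On the TMM scale of the gene levels below, 3 counts in WT replicate 1 are 17.3 CPM. Aligned reads that matched no counted feature made up 45.1% there, where the other libraries had 20.8% to 25.7%. Whether such reads lay within introns, on the other strand or between genes was not tested. Reads that could not be aligned made up 46.0% to 50.8% in Jag2sm replicates 1, 2 and 4 and 2.44% to 3.24% in the other 4 libraries, and their part in the results was not tested. The median count of a member was 2 in WT replicate 1 and 49.5 and 38 in WT replicates 2 and 3, so results are given with and without it. *Jag2* itself was at 80.7, 114 and 116 CPM in the WT libraries and at 42.4, 78.8, 71.9 and 77.4 CPM in the Jag2sm libraries, a log2 fold change of -0.64 (SE 0.24, adjusted p = 0.166, edgeR). The sorted cell type was present, with *Pax7* at 28.8 to 95.7 CPM in WT and 100 to 172 CPM in Jag2sm libraries and *Myod1* at 698 to 830 and 615 to 806 CPM. *Des*, the other marker set for these cells, was at 4600, 1807 and 1875 CPM in WT and 706 to 1103 CPM in Jag2sm libraries. Its log2 fold change was -1.63 (SE 0.36, adjusted p = 0.0245, edgeR), and -1.06 (adjusted p = 0.0151) without WT replicate 1. With the batch number of the labels as a block it was not called (adjusted p = 0.0597). *Ptprc*, which defines immune cells, was at 0 in all libraries, *Pecam1* and *Cdh5* of endothelial cells had at most 4.84 and 1.41 CPM, and *Pdgfra* of fibro-adipogenic cells had at most 2.83 CPM, where the whole list of fibro-adipogenic genes summed to 34.6 to 369 CPM.

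No member differed between the genotypes at the threshold used. The edgeR quasi-likelihood test, adjusted by the Benjamini-Hochberg method over all 9489 genes tested, called 0 of the 36 members that passed the filter on low counts, with adjusted p between 0.102 and 0.998, where the same test called 6.26% of all genes (1.42% as higher and 4.84% as lower in Jag2sm). At an unadjusted p under 0.05 there were 5 members, *Mcm3*, *Prim1*, *Prim2*, *Rfc2* and *Tk1*, each higher in Jag2sm, against 8.76% of all genes higher and 11% lower. Fitted values were nonetheless mostly on the same side. The log2 fold change of Jag2sm over WT was above 0 in 33 of 36 members, where it was above 0 in 54% of all genes, and its median was 0.43 over the members and 0.05 over all genes, with standard errors of 0.20 to 0.53. No test was made of this shift, since the members share libraries and are not independent of each other.

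Without WT replicate 1 the shift was smaller and no member was called. Of 37 members then tested, with *Rfc4* added, 0 were called, where 5.8% of 9938 genes were (1.11% higher and 4.69% lower), 6 had an unadjusted p under 0.05, where 8.59% of genes were higher and 11.6% lower by that rule, and 29 had a log2 fold change above 0, against 52.6% of genes. The median member was at 0.30 and the median gene at 0.03. Among the 36 members of the fit with all libraries, 33 had a lower log2 fold change without WT replicate 1, and the median fell from 0.43 to 0.30. Standard errors also became smaller, with a median of 0.24 against 0.29.

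**Figure D1:**
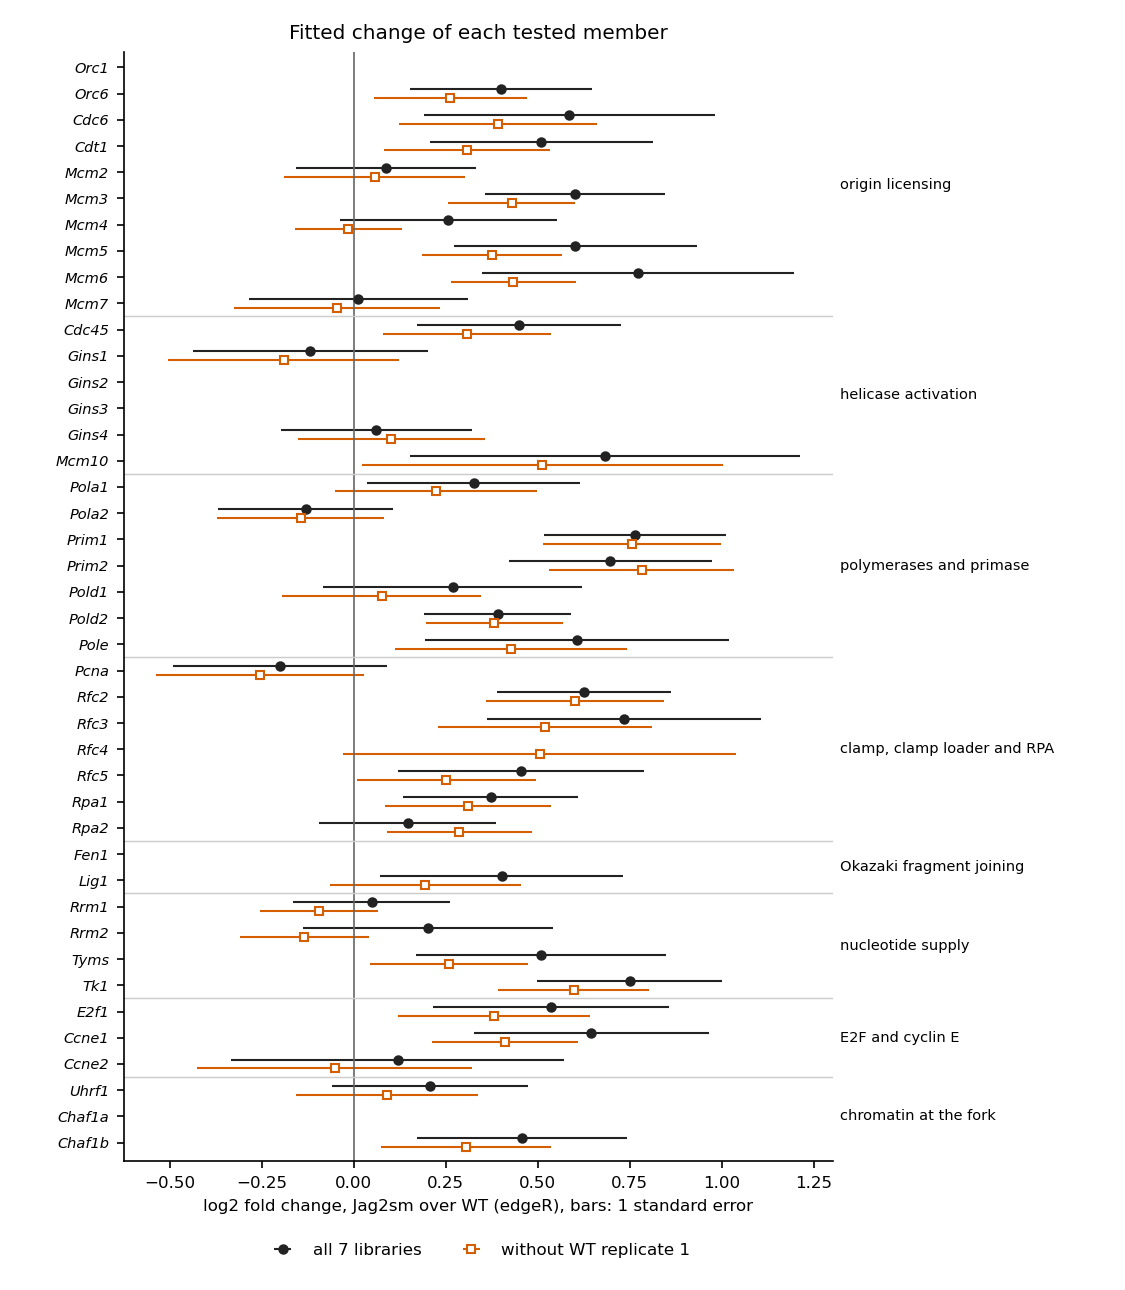
Fitted log2 fold change of Jag2sm over WT for each tested member, grouped by role, with bars of 1 standard error, from all 7 libraries (filled circles) and without WT replicate 1 (open squares). Of 36 members, 33 lie above 0 with all libraries and 28 of the same members without WT replicate 1, most of them closer to 0; members with no point did not pass the filter.

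Within the WT group, the members of WT replicate 1 lay apart. Their summed level was 1032 CPM in WT replicate 1, 1991 and 2362 CPM in WT replicates 2 and 3, and 2474, 2508, 2633 and 2299 CPM in the Jag2sm libraries. The mean of WT replicates 2 and 3 was thus 2.11 times WT replicate 1, and the mean of the Jag2sm libraries was 1.14 times that of WT replicates 2 and 3. From 179 counts, the log2 ratio of WT replicate 1 to the other WT libraries was -1.05 (exact 95% interval -1.28 to -0.84, which covers counting error only). By gene, 30 of 42 members were below both other WT libraries there, 6 lay between them and 6 were above. Among the tested members 77.8% were below both, against 48.6% of all genes tested. The interval of a single gene lay below 0 for 10 members, all of them tested (27.8% of 36), and above 0 for none, against 10.8% of all genes tested below and 11.5% above, and for the other 32 a difference from the other WT libraries was not detectable at this depth.

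By role, E2F and cyclin E genes had 17.3 CPM together in WT replicate 1 against 92.4 and 97.7 CPM in the other WT libraries, Okazaki fragment joining 17.3 against 51.7 and 81.6 CPM, origin licensing 231 against 542 and 680 CPM, and nucleotide supply 323 against 727 and 839 CPM. In these 4 roles the counting interval of the log2 ratio lay below 0. It reached above 0 for polymerases and primase (161 against 184 and 235 CPM), for the clamp, clamp loader and RPA (173 against 218 and 252 CPM), for helicase activation (69.2 against 100.2 and 99.6 CPM) and for chromatin at the fork (40.4 against 76.3 and 76.8 CPM). The intervals of the roles overlap, and no test compared the roles with each other. Those of E2F and cyclin E and of Okazaki fragment joining each rest on 3 counts in WT replicate 1.

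**Figure D2:**
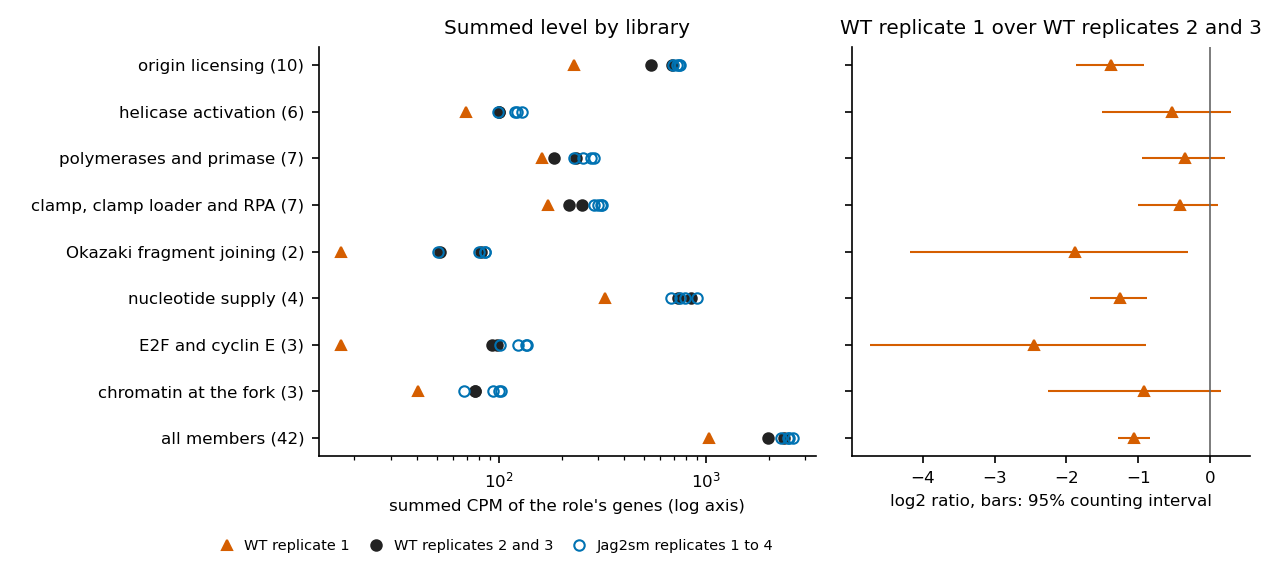
Left, summed CPM of the genes of each role in each library on a log axis, with the number of members in parentheses; right, log2 ratio of WT replicate 1 to WT replicates 2 and 3 for the same sums, with exact 95% counting intervals. WT replicate 1 has the lowest sum in every role, and its interval lies below 0 for origin licensing, Okazaki fragment joining, nucleotide supply, E2F and cyclin E, and all members together.

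Genes of differentiated muscle moved the other way across the libraries. The 16 genes of that list, among them *Ckm*, *Acta1* and *Myh3*, summed to 50650 CPM in WT replicate 1, 27560 and 30690 CPM in WT replicates 2 and 3, and 1098 to 6298 CPM in the Jag2sm libraries. All 14 that could be tested were called lower in Jag2sm, and 13 without WT replicate 1. The library with the lowest member sum thus had the highest sum of differentiated muscle genes. Their part in the members' levels was not tested, and in bulk RNA fewer dividing cells and less replication RNA per dividing cell cannot be told apart. Markers of other cells had summed levels in WT and Jag2sm libraries of 2.85 to 11.5 and 2.45 to 14.1 CPM for 6 endothelial genes, 0 to 3.23 and 1.97 to 5.71 CPM for 6 immune genes, 0 to 1.29 and 1.48 to 5.66 CPM for 4 glial genes, and 115 to 121 and 29.6 to 75.8 CPM for 3 tenocyte genes. The 6 fibro-adipogenic genes summed to 34.6 CPM in WT replicate 1, 220 and 132 CPM in WT replicates 2 and 3 and 202 to 369 CPM in Jag2sm libraries, so they were lowest in WT replicate 1, as the members were, and their part in the members' values was not tested. Nearly all of that sum was *Col3a1*, a fibrillar collagen (log2 fold change 0.93, SE 0.43, adjusted p = 0.262, edgeR), while *Lum* and *Dpt* were at 0 in all libraries, *Dcn* had at most 1.29 CPM and *Ly6a* at most 19.4 CPM. The 5 mural genes had 59.8 to 80.7 CPM in WT and 65.5 to 88.5 CPM in Jag2sm replicates 2 to 4, and 687 CPM in Jag2sm replicate 1, without which the members' median log2 fold change was 0.43 and 0 were called. The 10 myogenic progenitor genes had 3421 to 5868 CPM in WT and 2183 to 2668 CPM in Jag2sm libraries, with the highest sum again in WT replicate 1. Much of that sum was *Des*, at 4600 CPM in WT replicate 1, so it does not describe the other genes of the list. *Pax7* and *Myod1* were lowest in WT replicate 1 among the WT libraries. Of 9 tested genes 4 had a log2 fold change above 0, and 1 was called, *Des*, as lower in Jag2sm (2 without WT replicate 1).

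**Figure D3:**
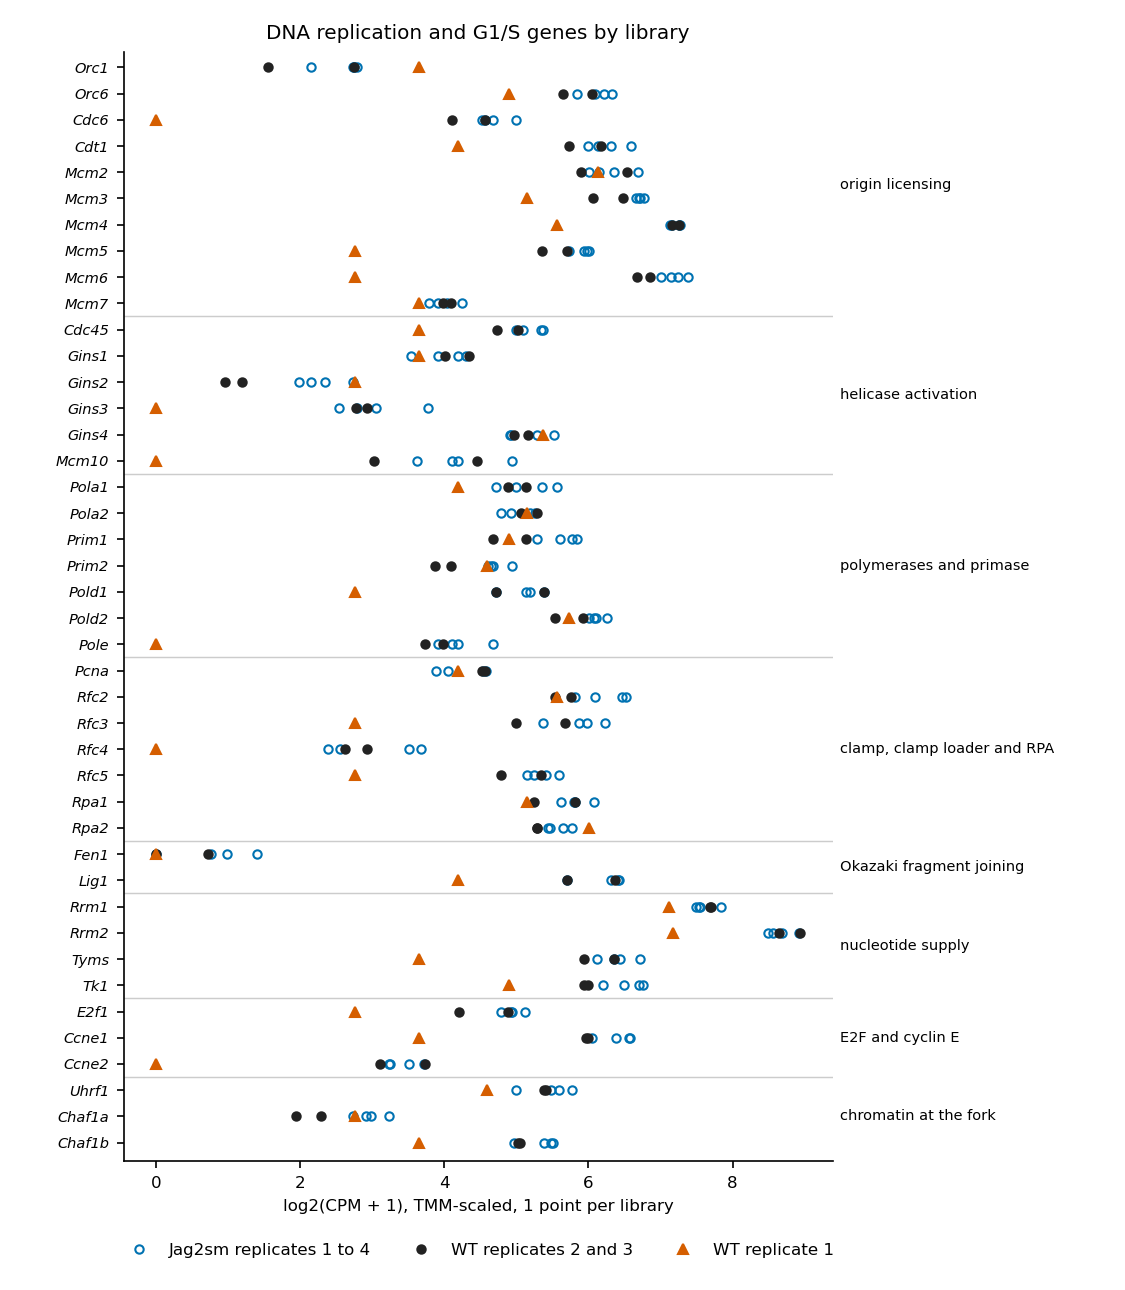
Level of each of the 42 members in each of the 7 libraries as log2(CPM + 1), grouped by role, with WT replicate 1 as triangles, WT replicates 2 and 3 as filled circles and the Jag2sm libraries as open circles. WT replicate 1 is below both other WT libraries for 30 of 42 members, and 7 members had 0 counts there, while genes such as Rpa2 and Prim2 are not low in it.

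In 9 of the 36 tested members the genotypes did not overlap, all with Jag2sm above WT, and in 0 with Jag2sm below. This was 25% of the tested members, where 10.3% of all genes did not overlap in this direction and 12.2% in the other. The 9 were *Mcm3*, *Mcm5*, *Mcm6*, *Prim1*, *Prim2*, *Pold2*, *Rfc2*, *Tk1* and *Ccne1*. For *Prim2* the gap was narrow, with 23.1 CPM from 4 counts in WT replicate 1 against 23.5 CPM in Jag2sm replicate 2. Without WT replicate 1, *Rpa2* joined the 9, which made 10 of 37 (27%), against 13.6% of all genes higher and 17.6% lower. Each group is small, so libraries that do not overlap are a description of the values and no test.

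Origin licensing was the role with most members. *Mcm4*, a subunit of the MCM ring, was at 46.1, 142 and 153 CPM in the WT libraries and at 153, 140, 153 and 142 CPM in the Jag2sm libraries. Only WT replicate 1 was low, and the 4 Jag2sm libraries were close to WT replicates 2 and 3. The log2 fold change of 0.26 (SE 0.29, adjusted p = 0.686, edgeR) became -0.01 (SE 0.15, adjusted p = 0.976) without WT replicate 1, with ratios of -0.02 and -0.0017 within batches 2 and 3, where a batch is the number that the labels give to 1 library of each genotype.

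*Mcm6*, another subunit of the ring, had the highest fitted log2 fold change of all tested members. It was at 5.76, 101 and 115 CPM in the WT libraries and at 127, 165, 150.3 and 141 CPM in the Jag2sm libraries, so every Jag2sm library was above every WT library. Its log2 fold change was 0.77 (SE 0.42, adjusted p = 0.348, edgeR) with all libraries, 0.43 (SE 0.17, adjusted p = 0.192) without WT replicate 1, and 1.03 (adjusted p = 0.298) with the batch number as a block. A single count was recorded in WT replicate 1, which set the log2 ratio within batch 1 at 3.89, against 0.71 and 0.39 in batches 2 and 3. Of the counts of all libraries pooled by genotype, the log2 ratio was 0.57 (exact 95% interval 0.38 to 0.78), and it was 0.49 (0.29 to 0.69) without WT replicate 1. These intervals cover counting error only and no spread between libraries. In size, then, the fitted value depended on WT replicate 1, and its sign did not, but neither fit called the gene.

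The other 8 licensing genes, *Orc1*, *Orc6*, *Cdc6*, *Cdt1*, *Mcm2*, *Mcm3*, *Mcm5* and *Mcm7*, included 7 that were tested. All 9 tested licensing genes had a log2 fold change above 0 with all libraries (median 0.51) and 7 without WT replicate 1 (median 0.31). *Mcm7*, whose log2 fold change was 0.01, and *Mcm2*, at 0.09, were the lowest of the group. *Mcm7* also hosts microRNA genes and shares exon bases with *Ap4m1* and *Cops6* on the other strand, so its counts are uncertain. *Cdc6*, which helps load the ring, had 0 counts in WT replicate 1 and 16.2 and 22.8 CPM in WT replicates 2 and 3. The limit of WT replicate 1 is 17.3 CPM on this scale, above the value of WT replicate 2. Fitted values of the ring's subunits ranged from 0.01 (SE 0.30) for *Mcm7* to 0.77 (SE 0.42) for *Mcm6*. Whether the subunits differed from each other was not tested.

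The letters of the E2F site were looked for in 300 bases around the start of each member's canonical transcript, from 250 bases before it to 50 bases from it. The forms TTTCCCGC, TTTCGCGC, TTTGCCGC and TTTGGCGC were searched on both strands, and matches that overlap on opposite strands were counted separately. At least 1 was found in 12 of 42 members (28.6%), against 2.82% of 21757 protein-coding promoters and 4.22% of the 9030 whose genes were tested. The share was 17 of 50 (34%) in the list of other replication genes and 1 of 45 (2.22%) in the mitosis genes, so such letters were not particular to the members. At least 2 were found in 7 members (16.7%), against 0.12% of all promoters. The 12 were *Orc1*, *Cdc6*, *Cdt1*, *Mcm3*, *Mcm4*, *Mcm5*, *Mcm6*, *Gins1*, *Pola1*, *Pole*, *Rfc3* and *E2f1*, of which 7 are licensing genes. The letters of the cell cycle homology region (CHR), TTTGAA, which is known from genes of late G2 and mitosis, were found in 3 members (7.14%), *Mcm2*, *Fen1* and *Rrm2*, against 17.1% of all promoters and 22 of 45 mitosis genes (48.9%). A match is a run of letters and no evidence of binding.

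Upstream sequence is shown for the 4 members with E2F letters before the start. *Mcm4*, *Mcm5* and *Mcm6* belong to the same ring, and their fitted values were not tested against each other. *Pola1* is the catalytic subunit of the priming polymerase. Sequences are from GRCm39 with starts of GENCODE M39, read 5′ to 3′ on the strand of the gene, in lower case with E2F letters in capitals, and leave out annotated exons. They are *Mcm4* at chr16:15455265-15455424 (minus strand), *Mcm5* at chr8:75835980-75836139 (plus), *Mcm6* at chr1:128287517-128287612 (minus) and *Pola1* at chrX:92675814-92675973 (minus).
Mcm4: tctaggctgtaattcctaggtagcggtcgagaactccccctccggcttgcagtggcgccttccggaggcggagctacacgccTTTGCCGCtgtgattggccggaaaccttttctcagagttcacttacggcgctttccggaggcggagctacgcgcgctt
Mcm5: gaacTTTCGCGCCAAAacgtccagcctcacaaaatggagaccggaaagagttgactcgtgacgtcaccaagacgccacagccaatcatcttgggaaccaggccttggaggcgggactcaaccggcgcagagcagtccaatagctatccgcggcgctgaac
Mcm6: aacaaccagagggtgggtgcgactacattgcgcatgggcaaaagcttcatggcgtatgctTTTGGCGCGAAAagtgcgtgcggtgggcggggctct
Pola1: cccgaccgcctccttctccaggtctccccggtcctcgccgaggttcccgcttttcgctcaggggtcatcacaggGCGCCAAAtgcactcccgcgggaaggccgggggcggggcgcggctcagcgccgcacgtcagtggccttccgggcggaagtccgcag
In *Mcm5* and *Mcm6* the capitals are an overlapping pair on opposite strands, and *Mcm4* has a further match 220 bases before its start, outside the stretch shown.

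For 4 members with a pair of matches in an annotated exon near the start, and for the third match of *Mcm6*, 30 bases are shown in the same way. These are *Mcm6* at chr1:128287471-128287500 (minus strand), *Mcm3* at chr1:20890490-20890519 (minus), *Gins1* at chr2:150751496-150751525 (plus), *Rfc3* at chr5:151574660-151574689 (minus) and *E2f1* at chr2:154411784-154411813 (minus).
Mcm6: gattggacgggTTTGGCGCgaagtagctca
Mcm3: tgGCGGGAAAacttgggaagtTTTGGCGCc
Gins1: ttgagcctaTTTGGCGCCAAAgcgaggagc
Rfc3: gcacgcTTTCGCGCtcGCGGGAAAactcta
E2f1: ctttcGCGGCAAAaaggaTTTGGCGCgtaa
Each of *Mcm3*, *Rfc3* and *E2f1* holds a pair of separate matches on opposite strands, and *Gins1* holds an overlapping pair of the same form.

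**Figure D4:**
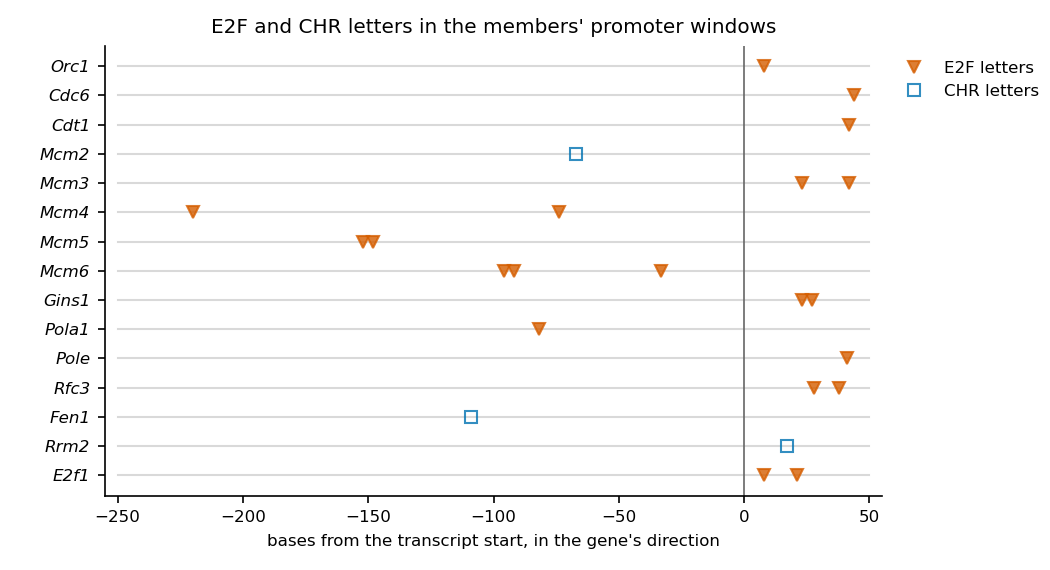
Position of the centre of each E2F match (triangles) and CHR match (squares) in the window of 250 bases before to 50 bases from the transcript start, for the members with at least 1 match. E2F matches lie before the start in Mcm4, Mcm5, Mcm6 and Pola1 and just past it in the other 8 members with such letters.

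The 12 members with E2F letters summed to 161 CPM in WT replicate 1, 530 and 647 CPM in WT replicates 2 and 3, and 696 to 759 CPM in the Jag2sm libraries. The 30 members without them summed to 870, 1461 and 1716 CPM in WT and 1586 to 1920 CPM in Jag2sm libraries. Against the other WT libraries, the log2 ratio of WT replicate 1 was -1.84 (exact 95% interval -2.43 to -1.30) for the former and -0.85 (-1.09 to -0.61) for the latter. These intervals cover counting error in 1 library against 2 others and no spread between genes or samples, so the sets were not tested against each other. Between genotypes the median log2 fold change was 0.59 over 11 tested members with the letters and 0.39 over 25 without them, and 0.38 and 0.26 without WT replicate 1. Single genes did not follow this split: *Gins1*, with a pair of matches, was at -0.12, and *Prim1*, with none, was at 0.76.

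Among the helicase activation genes, *Gins4*, a subunit of the GINS complex that joins CDC45 and the MCM ring, was at 40.4, 34.9 and 30.4 CPM in WT and at 38.2, 29.0, 44.8 and 29.4 CPM in Jag2sm libraries. The groups overlapped throughout, and WT replicate 1 was the highest WT library. Its log2 fold change was 0.06 (SE 0.26, adjusted p = 0.943, edgeR). *Gins1*, of the same complex, was at 11.5, 19.4 and 15.2 CPM in WT and at 14.1, 18.7, 17.2 and 10.6 CPM in Jag2sm libraries, again with full overlap and a log2 fold change of -0.12 (SE 0.32, adjusted p = 0.895). *Cdc45* and *Mcm10*, the other tested genes of this role, were at 0.45 and 0.68. With *Gins2* and *Gins3* untested, 3 of 4 tested members were above 0.

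Polymerase and primase genes held members from either end of the range. *Prim1*, the catalytic subunit of the primase that starts each new strand, was at 28.8, 24.6 and 34.1 CPM in WT and at 38.2, 53.9, 47.8 and 56.2 CPM in Jag2sm libraries. All Jag2sm libraries lay above all WT libraries, and WT replicate 1, with 5 counts, lay between the other WT libraries. *Prim1* shares 194 exon bases with *Gm66417* on the opposite strand, so its counts are uncertain. The log2 fold change was 0.76 (SE 0.25, adjusted p = 0.102, edgeR) and 0.76 (SE 0.24, adjusted p = 0.115) without WT replicate 1. Scaled by library size alone, with no TMM factors, *Prim1* was the single member called (0.92, adjusted p = 0.0474), where 2.54% of all genes were called higher and the median of all genes stood 0.16 higher than with TMM. Over the other settings tried, adjusted p of *Prim1* reached 0.349.

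*Pold2*, the accessory subunit of polymerase delta, had 51.9, 45.2 and 59.8 CPM in WT and 66.5, 75.3, 68.0 and 63.6 CPM in Jag2sm libraries. The genotypes did not overlap, and WT replicate 1 was again between the other WT libraries. Its log2 fold change was 0.39 (SE 0.20, adjusted p = 0.314, edgeR) with all libraries and 0.38 (SE 0.19, adjusted p = 0.300) without WT replicate 1. *Pola2*, the regulatory subunit of the priming polymerase, was at 34.6, 32.3 and 37.9 CPM in WT and at 35.4, 37.3, 26.6 and 29.4 CPM in Jag2sm libraries. These values overlapped, with a log2 fold change of -0.13 (SE 0.24, adjusted p = 0.823). *Prim2*, the partner of *Prim1*, had 0.70 with all libraries and 0.78 without WT replicate 1, where it was also above both other WT libraries. The remaining members, *Pola1*, *Pold1* and *Pole*, were at 0.33, 0.27 and 0.61, and *Pole* had 0 counts in WT replicate 1.

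In the group of the clamp, clamp loader and RPA, *Rfc2*, a subunit of the loader, was at 46.1, 45.2 and 53.1 CPM in WT and at 90.5, 67.0, 87.7 and 55.4 CPM in Jag2sm libraries. The genotypes did not overlap, with Jag2sm replicate 4 close to the highest WT library. The edgeR fit put its log2 fold change at 0.63 (SE 0.24, adjusted p = 0.167), at 0.60 (SE 0.24, adjusted p = 0.204) without WT replicate 1, and the log2 ratio was 0.90, 0.56 and 0.71 within batches 1, 2 and 3. *Rfc2* shares 1708 exon bases with *Lat2* on the other strand, and the strand setting of the counting is not given in the sources used here, so its counts are uncertain.

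*Pcna*, the sliding clamp, had the lowest fitted value of all tested members. It was at 17.3, 22.0 and 22.8 CPM in WT and at 15.6, 13.8, 22.2 and 22.8 CPM in Jag2sm libraries. The genotypes overlapped, and the log2 fold change was -0.20 (SE 0.29, adjusted p = 0.764, edgeR), or -0.25 (SE 0.28) without WT replicate 1. *Pcna* shares 499 exon bases with *AV099323* on the opposite strand. Of the other members, *Rfc3*, *Rfc5*, *Rpa1* and *Rpa2* were at 0.73, 0.45, 0.37 and 0.15. *Rfc5* shares 2905 exon bases with *Wsb2* on the opposite strand, so its counts are uncertain. *Rpa2* was highest in WT replicate 1, at 63.4 CPM against 38.1 and 37.9 CPM in the other WT libraries, and its log2 fold change was 0.29 without that library.

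Okazaki fragment joining was measured through *Lig1*, the ligase that seals the fragments. It was at 17.3, 51.1 and 81.6 CPM in WT and at 50.9, 84.3, 84.8 and 78.3 CPM in Jag2sm libraries. WT replicate 1 and, in its own group, Jag2sm replicate 1 were lowest, and the genotypes overlapped. Its log2 fold change was 0.40 (SE 0.33, adjusted p = 0.555, edgeR) and 0.19 (SE 0.26, adjusted p = 0.739) without WT replicate 1.

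The nucleotide supply genes included those with most counts. *Rrm2*, the regulated subunit of ribonucleotide reductase, had 144, 400.1 and 490.3 CPM in WT and 412, 377, 485 and 359 CPM in Jag2sm libraries. Only WT replicate 1 stood out, and the Jag2sm libraries lay on either side of WT replicate 2. Its log2 fold change was 0.20 (SE 0.34, adjusted p = 0.805, edgeR) with all libraries and -0.13 (SE 0.18, adjusted p = 0.736) without WT replicate 1. The ratio within batches 2 and 3 was -0.09 and -0.02, against 1.49 within batch 1. *Rrm2* shares 1437 exon bases with *Gm59512* on the opposite strand.

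*Tk1*, the thymidine kinase of the salvage pathway, was at 28.8, 60.1 and 62.6 CPM in WT and at 89.1, 107, 103 and 72.6 CPM in Jag2sm libraries. All 4 Jag2sm values exceeded all WT values. The fitted log2 fold change was 0.75 (SE 0.25, adjusted p = 0.113, edgeR), and 0.60 (SE 0.21, adjusted p = 0.139) without WT replicate 1. Within batches 2 and 3 the log2 ratio was 0.83 and 0.72, and it was larger within batch 1. *Tk1* shares 630 exon bases with *Syngr2* and 121 with *Afmid* on the opposite strand, so its counts are uncertain. *Rrm1*, which gives the large reductase subunit, was at 0.05 with all libraries and -0.09 without WT replicate 1, and *Tyms*, the thymidylate synthase, was at 0.51 and 0.26. The pooled values of this role were nearly level, with the mean of the Jag2sm sums at 0.996 times the mean of WT replicates 2 and 3, and *Tk1* was the member of it in which the genotypes did not overlap.

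*Ccne1*, the cyclin E that activates CDK2 at the G1/S boundary, was at 11.5, 62.7 and 61.6 CPM in WT and at 93.3, 94.7, 65.5 and 82.3 CPM in Jag2sm libraries. The genotypes did not overlap, although Jag2sm replicate 3 came close to WT replicates 2 and 3. Its log2 fold change was 0.65 (SE 0.32, adjusted p = 0.298, edgeR) with all libraries and 0.41 (SE 0.20, adjusted p = 0.296) without WT replicate 1. *E2f1*, the activating E2F factor, was at 0.54 and 0.38. *Ccne2*, the paralog of *Ccne1*, was at 0.12 and -0.05, had 0 counts in WT replicate 1, and shares 852 exon bases with *Ints8*.

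*Uhrf1*, which carries DNA methylation across the fork, was at 23.1, 40.7 and 41.7 CPM in WT and at 43.8, 53.9, 47.3 and 31.0 CPM in Jag2sm libraries. The genotypes overlapped through Jag2sm replicate 4, and the log2 fold change was 0.21 (SE 0.27, adjusted p = 0.728, edgeR) with all libraries and 0.09 (SE 0.25) without WT replicate 1. *Chaf1b*, of the chromatin assembly factor that places histones behind the fork, was at 0.46 and 0.30.

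The 6 untested members were *Orc1*, *Gins2*, *Gins3*, *Rfc4*, *Fen1* and *Chaf1a*, with 39, 24, 53, 63, 6 and 49 counts over all libraries. They had at most 12.7 CPM in any library, and in WT replicate 1 their levels were below or at the limit of a count of 0. *Fen1*, the flap nuclease of Okazaki fragments, had the fewest counts of all members. Its exons share 1909 bases with *Gm10143* and 225 with *Tmem258* on the other strand, and *Chaf1a* shares 4648 with *Ubxn6*, *Gins2* 2758 with *Gse1*, *Orc1* 695 with *Gm12743* and *Rfc4* 368 with *Eif4a2*. *Gins3* shares none. Among all members, the 12 with 500 or more shared exon bases had a median of 101.5 counts (range 6 to 3421), against 359 (53 to 1638) in the 21 that share none. Another 9 members, among them *Prim1*, *Prim2*, *Lig1* and *Gins1*, share fewer than 500, with a median of 350 counts (133 to 601). Whether reads on shared bases were set aside as ambiguous was not tested.

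Batches differed in the size of the shift. The median log2 ratio of Jag2sm over WT across the 36 tested members was 1.485 within batch 1, which holds WT replicate 1, 0.45 within batch 2 and 0.16 within batch 3, where the median of all genes tested was 0.023, 0.014 and -0.0093. The ratio was above 0 in 31, 28 and 25 of them, against 50.9%, 51.2% and 49.4% of all genes, and in all 3 batches in 18, against 22.1% of all genes. Each batch holds 1 library per genotype and gives no test, and Jag2sm replicate 4 has no WT library of its number. With the batch number as a block no member was called, and the median was 0.53.

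Compared with the other cell cycle lists, the members lay between the other replication genes and the mitosis genes. Over 41 tested genes of the other replication list, which holds further subunits and regulators, the median log2 fold change was 0.28 with 30 above 0, and 0.11 without WT replicate 1. Over 45 mitosis genes the median was 0.63 with 45 above 0, and 0.39 with 39 above 0 without WT replicate 1. The mitosis genes summed to 836, 3159 and 3824 CPM in WT and 3744 to 5429 CPM in Jag2sm libraries, so WT replicate 1 was low in them too. No test compared these lists with each other.

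Some genes of these lists passed the test, which called 6.26% of all genes. It called 1 of 45 mitosis genes and 2 of 41 tested genes of the other replication list. *Pttg1*, the securin that guards chromosome separation, was the single mitosis gene called, at 46.5 to 63.4 CPM in WT and 108 to 200.1 CPM in Jag2sm libraries (log2 fold change 1.36, SE 0.27, adjusted p = 0.0157, edgeR). Among the other replication genes, *Cdk2*, the kinase partner of cyclin E, fell by 1.03 on the log2 scale (SE 0.23, adjusted p = 0.0245), from 88.2 to 110 CPM in WT to 37.4 to 62.8 CPM in Jag2sm libraries. *Rb1*, the retinoblastoma protein that holds E2F in check, fell by 1.40 (SE 0.36, adjusted p = 0.0473), and its call was lost when WT replicate 1 was left out (adjusted p = 0.0845). In the list of cell cycle exit and D cyclins 4 of 16 genes were called, 2 as higher and 2 as lower, against 6.26% of all genes. *Ccnd3*, a D cyclin, and *Cdkn1a*, the inhibitor p21, had log2 fold changes of -0.99 (adjusted p = 0.0152, edgeR) and -1.09 (adjusted p = 0.0369). *Cdkn2a*, which encodes an inhibitor of the D cyclin kinases, and *Ccng1* had 1.22 (adjusted p = 0.0368) and 0.97 (adjusted p = 0.0451). With the batch number as a block *Ccnd3*, *Cdkn1a* and *Ccng1* were not called (adjusted p = 0.0621, 0.0676 and 0.106), and *Cdkn2a* was not called without WT replicate 1 (0.0729). Over the other settings tried, adjusted p went up to 0.0968 for *Pttg1* (without WT replicate 3), 0.0895 for *Cdk2* (without Jag2sm replicate 2), 0.145 for *Rb1* (without WT replicate 3), 0.0621 for *Ccnd3*, 0.134 for *Cdkn1a* (without Jag2sm replicate 2), and 0.198 and 0.171 for *Cdkn2a* and *Ccng1* (without WT replicate 3), so each of these calls was lost in at least 1 of them.

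**Figure D5:**
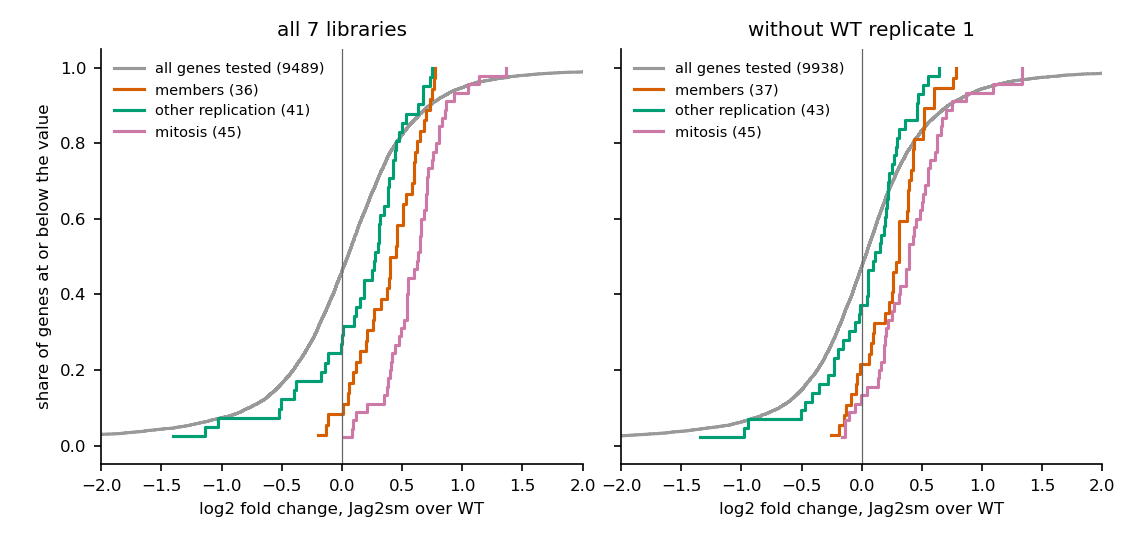
Cumulative share of genes by log2 fold change of Jag2sm over WT, for all genes tested, the members, the other replication genes and the mitosis genes, with all 7 libraries (left) and without WT replicate 1 (right). The members' curve lies to the right of that of all genes on either side, with medians of 0.43 and 0.30 against 0.05 and 0.03, and the mitosis genes lie furthest right.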

How the data were processed

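RNA of 3 WT and 4 Jag2sm MuSC samples was measured as long-read cDNA. The authors called bases, used minimap2 2.17 to align reads to GRCm39 and HTSeq to assign them to genes, and deposited the raw counts of each gene in each library. The annotation release and the strand setting are not given in the sources used here. A table of the authors' own DESeq2 comparison (fold changes and p-values) was not used. The 5 summary counts of each library stayed out of library sizes. Of 56748 identifiers, 56017 were found in GENCODE M39, which uses the same build.

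Counts were filtered with filterByExpr (minimum count 10, total 15), scaled by TMM and tested with glmQLFit and glmQLFTest in edgeR 4.0.16 (R 4.3.3) with no covariate. Genes were called at an adjusted p under 0.05. The standard error is the log2 fold change divided by the square root of F. CPM are TMM-scaled. Exact intervals of count ratios are Clopper-Pearson at 95% (SciPy). Ratios within a batch add 0.5 to each count. Scripts were tested on simulated data.

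The labels give each library a batch number equal to its replicate number, so numbers 1 to 3 pair WT with Jag2sm libraries. Deviations from the genotype mean correlated at 0.0740, 0.0144 and 0.0539 within these pairs over 9489 genes. What the batch was is not stated.

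The members and lists were chosen with earlier results of these data known. Values by library are given for the members with most counts in each role (2 for origin licensing) and those with the 3 highest and 3 lowest fold changes. *Mcm2*, *Mcm7*, *Prim2*, *Rpa2* and other members named beside them were named after their values were seen. Alternatives were other size factors, library size alone, DESeq2 1.42.0, limma-voom 3.58.1, other filters, a robust fit, the batch as a replicate block and leaving out each library. The block without batch number 1 was added after seeing the data.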

Additional observations from a re-analysis of the deposited data

Results flagged for a closer look

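In the 4 Jag2sm libraries *Lig1* was set apart by its lowest value, 50.9 CPM in Jag2sm replicate 1 against 78.3 to 84.8 CPM in the others. The gap to the nearest library was 0.843 of the whole range on the log2 scale, above the 95% critical value of Dixon's test for 4 samples. The same check was made for 36 members and chance flags about 1 in 20, so 1 such gene is no pattern.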

How the results depend on the processing

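No member was called higher or lower under the 16 other settings, except 1 called higher with library size alone. The median log2 fold change of the tested members stayed above 0 in all of them, from 0.26 with at least 10 counts in every library (4 members left) to 0.63 without WT replicate 3, and it was 0.53 in the paired fit with the replicate block, which changed no call of a member. Members whose libraries did not overlap numbered 8 with the size factors of DESeq2, 17 with library size alone and 10 with no filter on low counts. They numbered 0 with at least 10 counts in every library and 10 to 17 when each library was left out. The share of all genes not overlapping in this direction was 10.3% with all libraries and 13.6% without WT replicate 1. It was not computed for the other settings, so their counts are no result about the members. With library size alone the median of all genes was 0.21 in place of 0.05, and the members stood 0.38 above it, as they did with TMM. The log2 ratio of the members' summed counts, 0.27 with all libraries, was 0.43 with library size alone and 0.20 to 0.40 when each library was left out.

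Of the 14 members described by library, 5 with values near 0 changed sign in some setting. *Mcm4* was -0.014 to 0.47 when each library was left out, -0.0038 with the replicate block without batch number 1, and -0.0205 and -0.0017 within batches 2 and 3. *Rrm2* was -0.13 to 0.51, -0.0456, -0.0878 and -0.0169 under the same settings. *Gins4* was -0.0909 to 0.16 when each library was left out, and -0.15 and -0.26 within batches 1 and 2. *Pola2* was 0.0309 with library size alone and 0.21 within batch 2. *Gins1* was -0.22 to 0.12 when each library was left out, 0.0427 with library size alone, 0.0875 with the replicate block, 0.0627 with the block without batch number 1, and 0.0425 and 0.16 within batches 1 and 3. With at least 10 counts in every library the median of the other replication genes was -0.35 (7 genes left) and that of cell cycle exit and D cyclins 0.66 (5 genes). For the members, depth is limited most by WT replicate 1, where their median count was 2.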
